A study of Homo sapiens with 10 samples.

Results

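The transcripts described here are those of the mitochondrial genome, which is transcribed by its own polymerase and not by RNA polymerase II. The members were all genes with an interval on chrM in the deposited SLAM-seq tables, 16 of 31015 genes. They were the 2 ribosomal RNA genes (MT-RNR1, small subunit; MT-RNR2, large subunit) and 14 transfer RNA genes, all on the plus strand, each with 1 interval. The annotation (GENCODE release 44) lists 37 genes on chrM. Its 13 protein-coding genes and its 9 minus-strand genes have no interval in the tables used here and were not analysed.

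SLAM-seq marks RNA made during a short pulse of 4-thiouridine (4sU), because alkylated 4sU is read as C where the genome has T. The libraries came from 22RV1, a cultured human line derived from a prostate carcinoma, in 5 groups of 2 replicates. Control cells had no inhibitor, and the others were treated for 4 h with 20 µM SRPIN340 (an SRPK1 inhibitor), with 50 µM Endovion (SCO-101, also used to inhibit SRPK1), with THZ531 (an inhibitor of the transcriptional kinases CDK12 and CDK13), or with THZ531 and Endovion together. The dose of THZ531 is 100 nM in the study's methods and 150 nM in the text deposited with the series. All cells received 4sU for the last 10 min, so no library shows the T>C calls that arise without 4sU, by sequencing error or otherwise. What limits the model is that 1 cell line was used, and the sources do not say whether the 2 replicates were separate cultures, so p-values measure only the spread between these libraries.

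Mitochondrial DNA is transcribed from both strands into long precursors by the polymerase POLRMT with TFAM and TFB2M. In these precursors tRNAs sit between the rRNAs and mRNAs, and RNase P and ELAC2 cut them out. Mitochondrial mRNAs then receive a poly(A) tail, which for several of them completes the stop codon, while mature tRNAs receive a CCA end instead. The libraries were primed at poly(A), so a read counted in a tRNA interval need not come from a mature tRNA, and the tables do not say which RNA it came from.

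The first sequences show the border at which 4 tRNA intervals begin, because most reads of MT-TW and MT-TG meet the interval only at an edge. Each is read from hg38, plus strand, 5′ to 3′. The lower-case bases are the last 30 bases before the interval, and the capitals are its first 10 bases. MT-TW (chrM:5482-5521) follows MT-ND2 with no gap, MT-TG (chrM:9961-10000) follows MT-CO3, MT-TR (chrM:10375-10414) follows MT-ND3 and MT-TI (chrM:4233-4272) follows MT-ND1. The intervals of MT-TW, MT-TG and MT-TI begin with A, and that of MT-TR begins with T.
MT-TW: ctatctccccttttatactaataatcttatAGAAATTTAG
MT-TG: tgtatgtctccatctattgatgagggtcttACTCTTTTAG
MT-TR: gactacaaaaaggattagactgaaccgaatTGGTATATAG
MT-TI: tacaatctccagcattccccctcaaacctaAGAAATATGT

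The next sequences are whole tRNA intervals of the members that passed a test in at least 1 comparison, with every T, the base at which labelling can be read, in capitals. They are the genes for the tRNAs of isoleucine (MT-TI, chrM:4263-4331), methionine (MT-TM, chrM:4402-4469), valine (MT-TV, chrM:1602-1670), serine (MT-TS2, chrM:12207-12265), phenylalanine (MT-TF, chrM:577-647), leucine (MT-TL1, chrM:3230-3304), tryptophan (MT-TW, chrM:5512-5579) and glycine (MT-TG, chrM:9991-10058), again from hg38, plus strand. The number of T in the sequence equalled the T content given in the tables for 16 of 16 members.
MT-TI: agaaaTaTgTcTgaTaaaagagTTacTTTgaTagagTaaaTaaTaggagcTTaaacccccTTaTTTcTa
MT-TM: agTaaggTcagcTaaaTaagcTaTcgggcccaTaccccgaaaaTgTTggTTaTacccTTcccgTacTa
MT-TV: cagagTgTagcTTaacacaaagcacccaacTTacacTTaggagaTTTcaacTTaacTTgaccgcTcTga
MT-TS2: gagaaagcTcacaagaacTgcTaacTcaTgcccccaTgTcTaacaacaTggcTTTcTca
MT-TF: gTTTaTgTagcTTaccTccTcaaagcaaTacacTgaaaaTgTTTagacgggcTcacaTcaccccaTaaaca
MT-TL1: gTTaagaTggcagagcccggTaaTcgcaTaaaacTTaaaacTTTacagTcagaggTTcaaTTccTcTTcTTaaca
MT-TW: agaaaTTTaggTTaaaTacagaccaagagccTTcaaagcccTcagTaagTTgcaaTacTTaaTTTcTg
MT-TG: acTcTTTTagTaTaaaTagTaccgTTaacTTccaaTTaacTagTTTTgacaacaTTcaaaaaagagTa

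The 16 members took a large and steady part of every library. Over the 10 libraries they held between 16.6% and 21.9% of the reads counted in genes, and between 16.4% and 21.2% of the T>C reads, which carry at least 1 T>C conversion and are called nascent here. The 2 rRNA genes held 89.7% to 92.2% of the chrM reads but 55.0% to 64.1% of the chrM T>C reads, so the tRNA intervals weighed more among the labelled reads. MT-RNR2 alone took 12.6% to 16.6% of all gene reads, with 2495103 to 4062832 reads a library.

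Reads per interval were fewest for MT-TR, with 82 to 142 a library. MT-RNR1 had 504855 to 888023 reads. Among the tRNA intervals MT-TL1 (138732 to 213263 reads), MT-TG (110029 to 206362) and MT-TW (31869 to 56916) stood above the other tRNA intervals, of which MT-TF had the most (9027 to 13643). The ranges of these 3 did not overlap that of MT-TF. MT-TT had 5198 to 9126 reads, MT-TI 3608 to 6216, MT-TH 3140 to 6122, MT-TV 1835 to 3320, MT-TM 899 to 2192, MT-TD 1101 to 1958, MT-TK 940 to 1725, MT-TS2 566 to 1208 and MT-TL2 227 to 392. Per T position the order changed. In control cells MT-RNR2 was read 174884 ± 20300 times per T (SD, n = 2), MT-RNR1 65202 ± 8687 times and MT-TL1 20437 ± 717 times, whereas MT-TG was read 371 ± 54.0 times per T and MT-TW 96.4 ± 10.5 times. MT-TG and MT-TW thus fell below MT-TI (2790 ± 130) and MT-TM (1614 ± 159) on this scale per length, although they held more reads.

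The order changed because reads differed in how many T positions of the interval they covered. A read of MT-RNR1 or MT-RNR2 covered 16.7 to 17.9 T positions, one of MT-TI 16.5 to 16.9 (of 22), one of MT-TM 14.4 to 14.7 (of 17) and one of MT-TF 12.5 to 12.9 (of 18). In MT-TL1 it was 2.13 to 2.23 (of 21), and in MT-TK, MT-TH and MT-TD between 1.52 and 3.72. In MT-TW a read covered on average only 0.0404 to 0.0571 of the 19 T positions, and in MT-TG only 0.0316 to 0.0495 of 23, so nearly all of their counted reads reached no T inside the interval. Conversions counted inside were accordingly few. MT-TW had 12 to 70 conversions a library against 11568 to 21773 T>C reads, and MT-TG had 56 to 170 against 29229 to 62532. At least 99.6% of the T>C reads of either interval therefore carried no counted conversion inside it, in every library. The first T of MT-TW is its base 6 and that of MT-TG its base 3, and the last T of both is base 2 from the end. Values for both below therefore describe mostly reads that meet the interval only at an edge. Which edge they met was not tested. MT-TR, which also follows an mRNA gene with no gap, was covered at 8.57 to 13.9 of its 23 T positions per read. Reads of MT-TL1, MT-TK, MT-TH and MT-TD covered on average 7.60% to 15.7% of the T positions. Values for these intervals below therefore also describe, on average, only a small part of the interval per read. The share of T>C reads with no conversion inside was at least 67.8% in MT-TV, at least 52.7% in MT-TM and at least 45.4% in MT-TT.

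**Figure D1:**
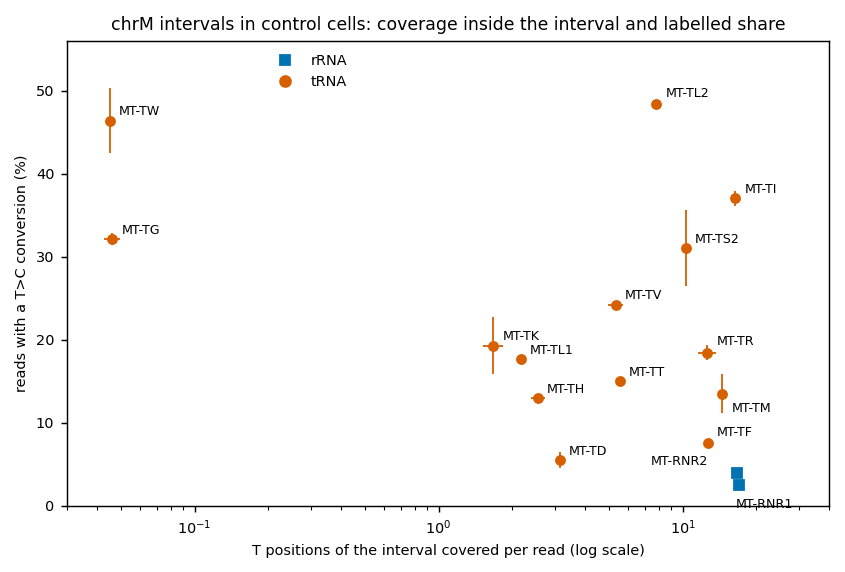
T positions covered per read (log axis) and percentage of reads with a T>C conversion for the 16 chrM genes in control cells, as the mean of 2 libraries with bars to the lower and higher one (squares, rRNA; circles, tRNA). MT-TW and MT-TG lie alone at the left, under 0.05 T positions per read, with labelled shares of 46.3% and 32.1%, while the rRNAs lie at the lower right.

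The labelled share, the percentage of a gene's reads with a conversion, separated the 2 rRNAs from the tRNA intervals. In control cells it was 2.49% ± 0.144 for MT-RNR1 and 3.98% ± 0.000405 for MT-RNR2 (SD, n = 2), below that of all nuclear genes summed, 5.63% ± 0.0944. MT-TD (5.47% ± 1.31) and MT-TF (7.53% ± 0.117) came next. The other 12 tRNA intervals had 12.9% to 48.4%, led by MT-TL2 (48.4% ± 0.512), MT-TW (46.3% ± 5.53) and MT-TI (37.0% ± 1.29). MT-TL2 and MT-TW did not differ beyond their spread. For MT-TR, the interval with fewest reads, the share of 17.6% in control replicate 1 had an exact (Clopper-Pearson) 95% interval of 11.5% to 25.2%, which covers counting error only. For scale, the median labelled share in control cells was 11.1% over 23 short-lived mRNAs, 3.49% over 24 stable mRNAs and 5.19% over all 9946 genes tested. Without a library free of 4sU, how much of the shares and conversion rates of the tRNA intervals was due to labelling was not tested.

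The conversion rate, the conversions per covered T inside the interval, does not count conversions outside it. MT-TK (9.07% ± 1.14), MT-TL2 (7.51% ± 1.54), MT-TL1 (6.56% ± 0.130), MT-TH (5.10% ± 0.595), MT-TI (3.42% ± 0.0348) and MT-TS2 (3.03% ± 0.393) had rates above those of 99.4% of the genes tested in control cells. Of neighbours in this order, MT-TK and MT-TL2, and MT-TL2 and MT-TL1, overlapped between their control libraries. MT-TW had 1.19% ± 0.322 and MT-TG 1.25% ± 0.298 on this measure, among MT-TV, MT-TT, MT-TR and MT-TD (0.804% to 1.30%). MT-TF had 0.674% ± 0.00248. MT-RNR2 had 0.223% ± 0.00393, MT-TM 0.198% ± 0.0143 and MT-RNR1 0.169% ± 0.0105, all below the median of 0.232% over all tested genes. The stable mRNAs had a median of 0.154% and the short-lived mRNAs one of 0.607%. MT-TM, with this low rate, had a labelled share of 13.5% ± 3.29. The tables do not give conversions by position, so whether the high rates came from a single T or from many was not tested.

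**Figure D2:**
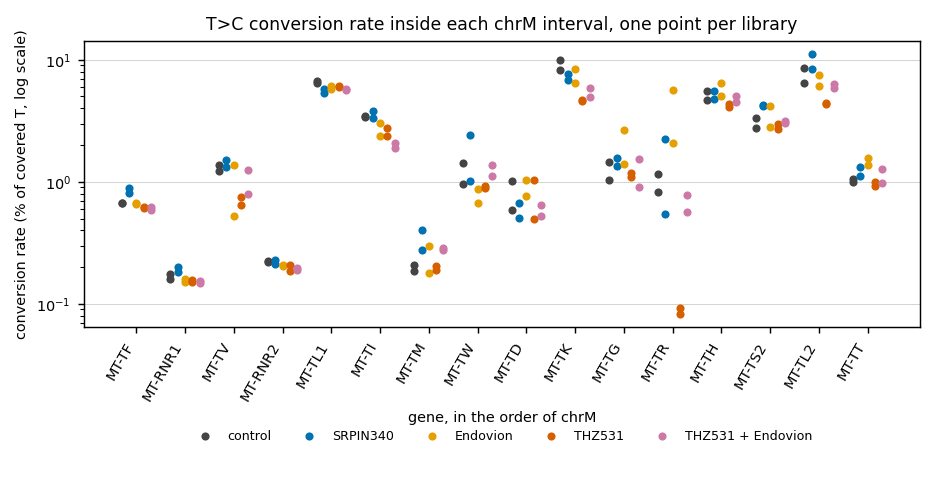
Conversion rate inside each of the 16 chrM intervals in percent of covered T (log axis), 1 point per library, 2 per group, genes in the order of chrM. The rRNAs and MT-TM lie between 0.149% and 0.403% in all 10 libraries, and MT-TL1, MT-TK, MT-TH and MT-TL2 at 4.10% or above in all.

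Depth and quality of the series bear on all of these values. Libraries held 19315403 to 30047692 reads and 1011598 to 1576106 T>C reads in genes, and the nuclear genes had labelled shares of 5.05% to 5.69%. Replicates differed beyond sampling noise in each group (chi-square per degree of freedom 3.38 to 4.66 for T>C reads and 14.6 to 22.0 for all reads). Of 9 prostate epithelial markers 9 had at least 100 reads in control cells, and 10 markers of fibroblasts, leukocytes and endothelium summed to 3.96 to 6.40 CPM (reads scaled to library size), with 4 of them at 0. Of these 10 markers 1 also had at least 100 reads in control cells, and 3 passed the filter on low counts in total RNA. All values below are relative to the rest of the library, so less RNA of a gene per cell cannot be told apart from more RNA of other genes, and 16 of 16 members passed the filter on low counts in both tests (9946 genes for nascent, 14689 for total RNA).

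With SRPIN340 several tRNA intervals were lower. In total RNA (all reads), 4 members fell in edgeR's quasi-likelihood test at an adjusted p (Benjamini-Hochberg over all genes) under 0.05, where 0.143% of all genes fell. In nascent RNA 2 members fell, where 0.191% of all genes fell. MT-TM is the tRNA that serves both initiation and elongation with methionine. It had 72.4 and 73.1 normalized CPM (counts scaled to library size with TMM factors) in the control libraries and 33.6 and 36.4 with SRPIN340. The groups were far apart, and the log2 fold change was -1.05 ± 0.16 (standard error; edgeR adjusted p = 0.0099). In nascent RNA MT-TM had 207 and 156 normalized T>C CPM in control cells and 75.8 and 88.9 with SRPIN340, again without overlap, with a log2 fold change of -1.14 ± 0.22 (edgeR adjusted p = 0.0014). Conversions counted inside MT-TM did not fall alike, at 55 and 53 in control cells and 53 and 46 with SRPIN340. Its conversion rate was 0.187% and 0.208% in control cells and higher with SRPIN340, at 0.403% and 0.276%. This change of the rate did not pass (log2 change 0.76 ± 0.36, edgeR adjusted p = 0.61).

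The other 3 called tRNA intervals were lower in total RNA with SRPIN340. MT-TV, whose tRNA is also a structural part of the human mitochondrial ribosome, had 118 and 115 normalized CPM in control cells and 71.9 and 67.7 with SRPIN340 (log2 fold change -0.74 ± 0.12, edgeR adjusted p = 0.0099). MT-TS2 had 43.1 and 35.6 in control cells and 21.2 and 20.8 with SRPIN340 (-0.91 ± 0.14, edgeR adjusted p = 0.0099). MT-TF, the first gene of the heavy-strand transcript, had 486 and 514 in control cells and 365 and 327 with SRPIN340 (-0.53 ± 0.13, edgeR adjusted p = 0.045). In all 3, both treated libraries lay below both control libraries. In nascent RNA the second member that fell was MT-TL1, with 22767 and 27422 normalized T>C CPM in control cells and 17530 and 16322 with SRPIN340 (-0.57 ± 0.13, edgeR adjusted p = 0.0103). In total RNA MT-TL1 had a log2 fold change of -0.41 ± 0.11 (edgeR adjusted p = 0.062).

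The rRNAs did not pass with SRPIN340. MT-RNR1 had 30618 and 29807 normalized CPM in control cells and 24211 and 21126 with SRPIN340, without overlap, and its log2 fold change was -0.41 ± 0.14 (edgeR adjusted p = 0.127). MT-RNR2 had 137487 and 139290 against 140784 and 123607, which overlapped (-0.07 ± 0.15, edgeR adjusted p = 0.86). In nascent RNA they were at -0.26 ± 0.14 (MT-RNR1, edgeR adjusted p = 0.55) and -0.19 ± 0.13 (MT-RNR2, edgeR adjusted p = 0.67). The 16 members ran from -1.05 to 0.17 in total RNA with a median of -0.19, against 0.03 over all tested genes, and 6 of 16 were above 0. Several calls depended on a single library or on how intervals were summed. Without SRPIN340 replicate 2, 0 members were called in total RNA, with edgeR adjusted p of 0.105 for MT-TM, 0.201 for MT-TV, 0.162 for MT-TS2 and 0.412 for MT-TF, and MT-TL1 lost its call in nascent RNA (0.289). Without control replicate 2, 2 members were called in total RNA (MT-TM 0.052 and MT-TF 0.287 lost) and MT-TL1 was again lost (0.354). MT-TF was also lost without SRPIN340 replicate 1 (0.078) and without replicate 2 of THZ531 with Endovion (0.059). It was lost with the replicate block as well (0.072). When all overlapping intervals were summed, the 4 calls in total RNA were lost (edgeR adjusted p = 0.056 for MT-TM, MT-TV and MT-TS2 and 0.084 for MT-TF), as were both nascent calls (0.227 for MT-TM and 0.136 for MT-TL1), with log2 fold changes that stayed close to those above. With only control and SRPIN340 libraries in the fit, MT-TV (0.059), MT-TS2 (0.077), MT-TF (0.116) and the nascent call of MT-TL1 (0.097) were lost. The nascent call of MT-TM was kept without each single library in turn.

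**Figure D3:**
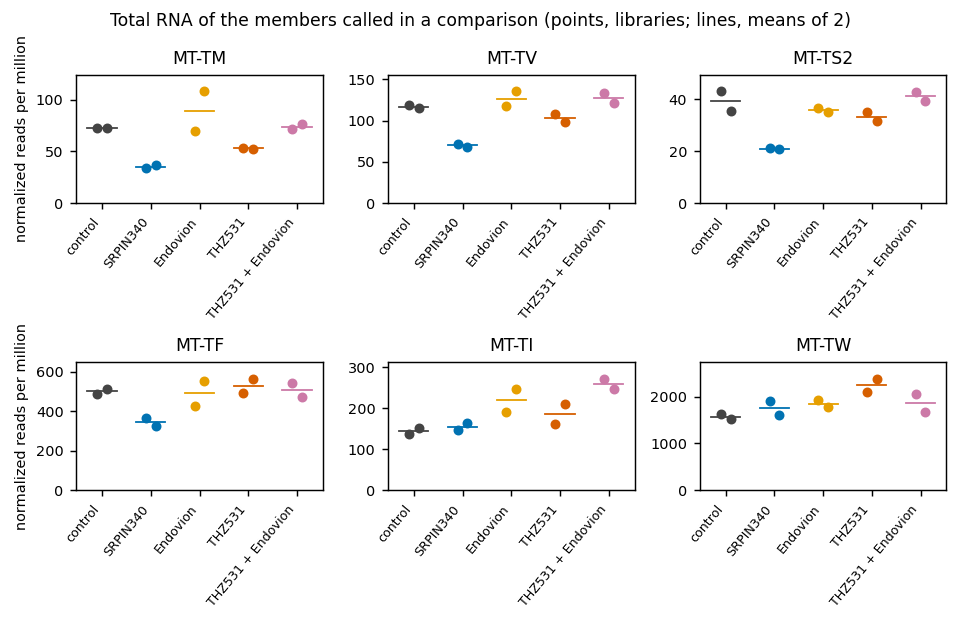
Normalized CPM in total RNA of the 6 tRNA intervals called in total RNA in at least 1 comparison, by group (points, the 2 libraries; lines, their mean; axes from 0). MT-TM, MT-TV, MT-TS2 and MT-TF are lowest with SRPIN340, MT-TI is highest with THZ531 and Endovion together, and MT-TW is highest with THZ531.

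With Endovion 1 tRNA interval was higher. In total RNA 1 member rose, where 8.90% of all genes rose. This was MT-TI, with 137 and 152 normalized CPM in control cells and 192 and 247 with Endovion, without overlap (log2 fold change 0.61 ± 0.14, edgeR adjusted p = 0.016). The call was lost without control replicate 1 (edgeR adjusted p = 0.054), without control replicate 2 (0.089) and without Endovion replicate 2 (0.41, adjusted p = 0.159). MT-TM, lower with SRPIN340, had 70.1 and 108 normalized CPM with Endovion, spanning the control values (0.29 ± 0.16, edgeR adjusted p = 0.25). In nascent RNA 0 members were called by edgeR and 0 by DESeq2, while 2 of 16 had an unadjusted p under 0.05 (over all genes, edgeR called 2.66%, and 14.1% had an unadjusted p under 0.05). These were MT-TI at 0.40 ± 0.14 (edgeR adjusted p = 0.145) and MT-TG at -0.33 ± 0.13 (edgeR adjusted p = 0.22). The rRNAs had 0.13 ± 0.14 (MT-RNR1) and 0.04 ± 0.13 (MT-RNR2) in nascent RNA. SRPIN340 and Endovion were each compared with the same control libraries and not with each other.

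With THZ531 few members changed. In total RNA 1 member rose and 1 fell, 2 of 16, where 30.7% of all genes were called in either direction. MT-TW had 1629 and 1515 normalized CPM in control cells and 2098 and 2386 with THZ531, without overlap (0.51 ± 0.13, edgeR adjusted p = 0.0064). As given above, nearly all of these reads covered no T of the tRNA gene. MT-TM had 53.4 and 52.7 with THZ531, below both control libraries (-0.46 ± 0.16, edgeR adjusted p = 0.042). MT-TI had 162 and 211 normalized CPM with THZ531, above both control libraries at 137 and 152, and did not pass (0.37 ± 0.14, edgeR adjusted p = 0.061). It was called with the replicate block, with no low-count filter, without THZ531 replicate 1 and without either Endovion library. In nascent RNA MT-TM was the 1 member called, where 3.60% of all genes fell. It had 95.7 and 110 normalized T>C CPM with THZ531 against 207 and 156 in control cells (-0.83 ± 0.22, edgeR adjusted p = 0.012). The nascent call was lost without control replicate 1 (edgeR adjusted p = 0.184), without THZ531 replicate 1 (0.136), without THZ531 replicate 2 (0.059) and with the plain sum of all intervals (0.160). In total RNA MT-TW was lost without control replicate 2 (0.071) and THZ531 replicate 2 (0.134), and MT-TM without 7 of the 10 libraries in turn (edgeR adjusted p from 0.055 to 0.107), which were all 4 libraries of the comparison, both of SRPIN340 and replicate 2 of THZ531 with Endovion. The plain sum of intervals also ended the total call of MT-TM (0.073).

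The rRNAs did not pass with THZ531. MT-RNR1 had 32116 and 27070 normalized CPM, which spanned the control values (log2 fold change -0.03 ± 0.14, edgeR adjusted p = 0.895), and MT-RNR2 had 146962 and 144121, above both control libraries by little (0.07 ± 0.15, edgeR adjusted p = 0.75). In nascent RNA they were at -0.08 ± 0.14 (MT-RNR1, edgeR adjusted p = 0.82) and -0.05 ± 0.13 (MT-RNR2, adjusted p = 0.88). The median of the 16 members was 0.03 in total and 0.01 in nascent RNA, against -0.01 and -0.02 over all tested genes. The lowest nascent value, -1.96 ± 0.69 for MT-TR, rested on 3 and 7 T>C reads against 23 and 23 in control cells and did not pass (edgeR adjusted p = 0.068).

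With THZ531 and Endovion together MT-TI rose in total and nascent RNA. In total RNA it had 273 and 246 normalized CPM against 137 and 152 in control cells (0.85 ± 0.14, edgeR adjusted p = 0.00067). It was the 1 member that rose, where 16.6% of all genes rose. Of the calls of chrM members given here this alone was kept in every other setting of the fit, DESeq2 and each left-out library included (log2 fold change 0.71 to 0.92, adjusted p at most 0.0144). In nascent RNA it had 1414 and 1345 normalized T>C CPM against 891 and 1098 (0.47 ± 0.14, edgeR adjusted p = 0.028). MT-TG fell, with 33945 and 28746 against 38385 and 47474 (-0.45 ± 0.13, edgeR adjusted p = 0.023). These were the 2 members called in nascent RNA, where 8.12% of all genes were called in either direction. MT-TI lost its nascent call without control replicate 1 (edgeR adjusted p = 0.247) or either library of the combination (0.193 and 0.074), and MT-TG without control replicate 2 (0.338) or replicate 2 of the combination (0.239). Both nascent calls were also lost with the plain sum of intervals (0.136 for MT-TI and 0.107 for MT-TG) and with only these 2 groups in the fit (0.065 and 0.104), and that of MT-TI with scaling to total reads (0.067). MT-TM had 71.5 and 76.5 normalized CPM in total RNA with both agents, against 72.4 and 73.1 in control cells (0.02 ± 0.16, edgeR adjusted p = 0.93). The rRNAs did not pass with both agents either. MT-RNR1 had 38946 and 29110 normalized CPM in total RNA, spanning the control values (0.17 ± 0.14, edgeR adjusted p = 0.39), and MT-RNR2 had 178183 and 130538, which also spanned them (0.16 ± 0.15, edgeR adjusted p = 0.46). Replicate 1 of this group was the highest of all libraries for both rRNAs.

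Whether Endovion acted otherwise in the presence of THZ531 was tested as an interaction in nascent RNA. By edgeR 0 of 16 members were called, and 0 by DESeq2, while 1 had an unadjusted p under 0.05 (over all genes, edgeR called 0.302%, and 7.70% had an unadjusted p under 0.05). This was MT-TM, with an interaction of 0.64 ± 0.31 on the log2 scale (edgeR adjusted p = 0.62). The rRNAs had 0.18 ± 0.20 (MT-RNR1) and 0.12 ± 0.19 (MT-RNR2). A different effect of Endovion with and without THZ531 was thus not shown for any member.

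**Figure D4:**
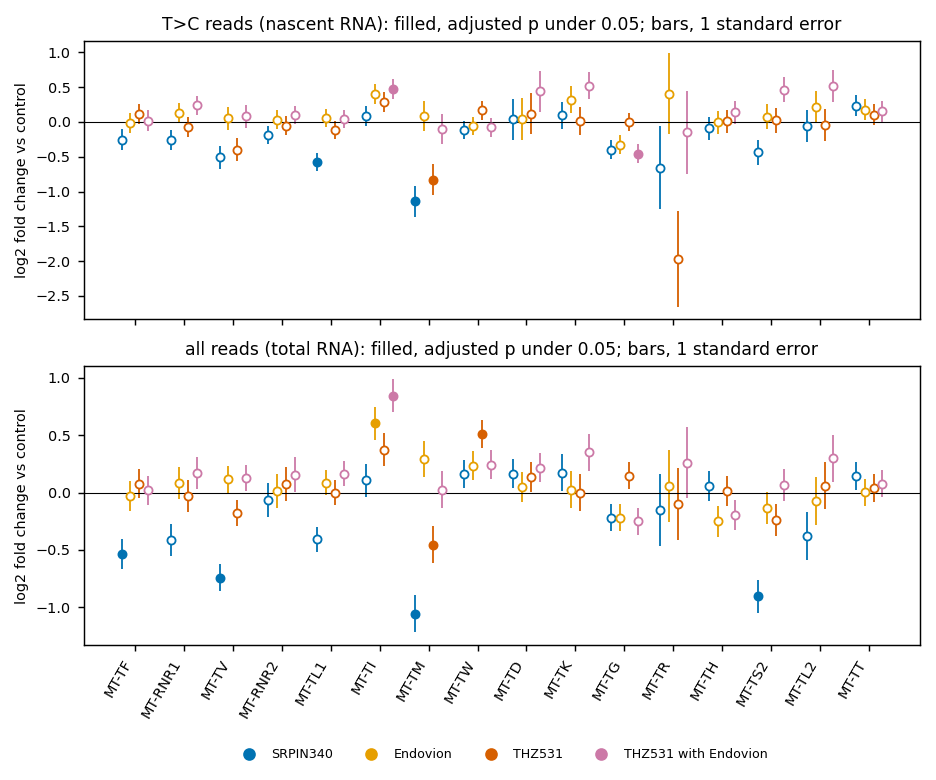
Log2 fold change against control of the 16 chrM genes in nascent RNA (upper panel) and total RNA (lower panel) for the 4 treatments, in the order of chrM, with bars of 1 standard error and filled points for an adjusted p under 0.05. SRPIN340 gives the lowest total values, down to -1.05 at MT-TM, and the combination gives the highest, 0.85 at MT-TI.

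With the threshold of the study's methods, which asks for a change of 2-fold or more and an unadjusted p under 0.05, few members passed. In nascent RNA 1 member passed with SRPIN340 (MT-TM, 4.66% of all genes), 0 with Endovion (6.49%), 1 with THZ531 (MT-TR, 12%) and 0 with the combination (11.3%). In total RNA MT-TM passed with SRPIN340 (4.21% of all genes), and 0 members passed with Endovion (6.88%), THZ531 (14.8%) or the combination (13.9%).

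The labelled share was tested within libraries, by setting the T>C reads of a gene against its unconverted reads. MT-TW was the member that passed. It had labelled shares of 42.4% and 50.3% in control cells, 34.7% and 36.4% with Endovion, and 35.7% and 36.3% with both agents. With Endovion the log2 change of its odds was -0.65 ± 0.12 (edgeR adjusted p = 0.011), where 0.251% of all genes fell, and with both agents it was -0.62 ± 0.12 (edgeR adjusted p = 0.013), where 0.724% fell. With SRPIN340 it had 39.4% and 35.6% (-0.52 ± 0.12, edgeR adjusted p = 0.117) and with THZ531 38.3% and 35.7% (-0.56 ± 0.12, edgeR adjusted p = 0.061). All 8 treated libraries lay below both control libraries, and control replicate 2 was the highest of the 10. Without control replicate 2 the call was lost with Endovion (edgeR adjusted p = 0.359) and with both agents (0.255), as it was without either library of Endovion (0.357 and 0.089) or of the combination (0.228 and 0.149). Both calls were also lost with TMM factors within each read class (edgeR adjusted p = 0.202 with Endovion and 0.134 with both agents), with the plain sum of intervals (0.249 and 0.209) and when conversions per covered T were tested in place of reads (0.811 and 0.981). With SRPIN340 edgeR called 0 members, with 6 at an unadjusted p under 0.05 (over all genes 0.0603% were called and 8.04% were under 0.05 unadjusted), and with THZ531 0, with 2 at an unadjusted p under 0.05 (0.0905% and 9.85%). DESeq2 was not run on the share. Without control replicate 1, MT-TW was called in both of these comparisons, and with THZ531 it was also called without either SRPIN340 library. With both agents MT-TG (-0.34 ± 0.09, edgeR adjusted p = 0.066) was called too without either SRPIN340 library.

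The shares of the rRNAs passed in no comparison. MT-RNR1 had 2.59% and 2.39% in control cells, 2.84% and 2.62% with SRPIN340, 2.47% and 2.34% with Endovion, 2.48% and 2.42% with THZ531 and 2.57% and 2.48% with both agents. MT-RNR2 had 3.98% in both control libraries and 3.47% to 3.96% in the 8 treated ones, all lower, with log2 changes of -0.15 ± 0.07 (SRPIN340), -0.07 ± 0.07 (Endovion), -0.11 ± 0.07 (THZ531) and -0.09 ± 0.07 (combination), none of which passed (edgeR adjusted p from 0.56 to 0.75). Over all tested genes the median change of the share was -0.11, -0.19, -0.09 and -0.16 in the same order, and the nuclear genes together went from 5.63% ± 0.0944 in control cells to 5.35% ± 0.362, 5.07% ± 0.0259, 5.41% ± 0.318 and 5.15% ± 0.0760. MT-TI had 36.1% and 37.9% in control cells and 26.9% and 29.1% with both agents (-0.60 ± 0.17, edgeR adjusted p = 0.113).

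For the conversion rate edgeR called 0 of 16 members in each of the 4 comparisons, with 2 (SRPIN340), 0 (Endovion), 3 (THZ531) and 2 (combination) at an unadjusted p under 0.05. Over all genes 0.0101%, 0.0%, 0.0201% and 0.111% were called, and 8.25%, 12.1%, 11.1% and 14.1% had an unadjusted p under 0.05. DESeq2 was not run on the rate. As a description, with THZ531 both libraries lay below both control libraries in 12 of 16 members and above in 0, against 28.7% of all genes below and 12% above. With both agents it was 8 below and 1 above (35.1% and 9.97% of all genes). With SRPIN340 5 lay above and 2 below (11% and 27.5%), and with Endovion 2 above and 5 below (8.69% and 35.5%). The 16 members come from the same RNA precursors and libraries and are not independent. The rate of all nuclear genes summed was also lower in treated cells, at 0.247% ± 0.000812 in control cells, 0.225% ± 0.0184 with SRPIN340, 0.210% ± 0.00141 with Endovion, 0.225% ± 0.0158 with THZ531 and 0.211% ± 0.00232 with both agents.

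Among single members the rates of MT-TI and MT-TK were lowest under THZ531 or the combination. MT-TI had 3.40% and 3.45% in control cells, 3.84% and 3.32% with SRPIN340, 3.01% and 2.36% with Endovion, 2.75% and 2.39% with THZ531 and 1.88% and 2.10% with both agents. The last of these was a log2 change of -0.81 ± 0.19 (edgeR adjusted p = 0.090). MT-TK, the lysine tRNA, had 9.88% and 8.26% in control cells and 4.72% and 4.59% with THZ531 (-1.02 ± 0.71, edgeR adjusted p = 0.65), on 77 to 243 conversions a library. MT-RNR2 had 0.226% and 0.221% in control cells and 0.207% and 0.185% with THZ531 (-0.19 ± 0.08, edgeR adjusted p = 0.42).

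Dividing conversions by T>C reads gives the number of conversions that a labelled read carried inside the interval. This measure was added after the data had been seen. MT-RNR1 had 1.157 and 1.153 conversions per T>C read in control cells, 1.212 and 1.215 with SRPIN340, 1.138 and 1.138 with Endovion, 1.081 and 1.075 with THZ531 and 1.083 and 1.067 with both agents. SRPIN340 lay above the control libraries, and the other 3 treatments lay below them without overlap. MT-RNR2 had 0.959 and 0.925 in control cells, 1.028 and 1.035 with SRPIN340, 0.946 and 0.918 with Endovion, 0.892 and 0.883 with THZ531 and 0.920 and 0.869 with both agents. It kept the order of SRPIN340 above and THZ531 below the control libraries, with Endovion overlapping them. MT-TI had 1.56 and 1.50 in control cells, 1.66 and 1.62 with SRPIN340, 1.46 and 1.45 with Endovion, 1.24 and 1.18 with THZ531 and 1.18 and 1.19 with both agents. Its THZ531 and combination libraries lay below all others.

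Over the 16 members, THZ531 lay below both control libraries in 12 and above in 0 (16.9% and 10.8% of all genes). The combination lay below in 10 and above in 3 (17.5% and 10.1%), SRPIN340 above in 9 and below in 3 (12.2% and 13.8%), and Endovion above in 3 and below in 5 (10.3% and 15.5%). The nuclear genes together had 1.06 conversions per T>C read in control cells and 1.03 to 1.05 in the treated ones, with SRPIN340 below the control libraries and not above them as for the rRNAs, a difference that was not tested. In edgeR's test 1 member was called in the combination, MT-RNR1 (log2 change -0.10 ± 0.01, edgeR adjusted p = 0.038), where 0.0101% of all genes fell. MT-RNR1 did not pass with THZ531 (-0.10 ± 0.01, edgeR adjusted p = 0.0504) or with SRPIN340 (0.07 ± 0.01, edgeR adjusted p = 0.28). With SRPIN340, Endovion and THZ531 0 members and 0.0% of all genes were called, with 6, 5 and 8 members at an unadjusted p under 0.05, where 3.29%, 2.82% and 3.94% of all genes were. DESeq2 was not run on this measure, and the 16 members share libraries and precursors. The conversions and T>C reads set against each other come from the same reads, a dependence that the test did not model. The call of MT-RNR1 in the combination was lost without any 1 of 8 libraries (edgeR adjusted p from 0.085 to 0.265), the exceptions being the 2 libraries of the combination itself. Without either of these, MT-RNR1 was also called with SRPIN340 and with THZ531.

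**Figure D5:**
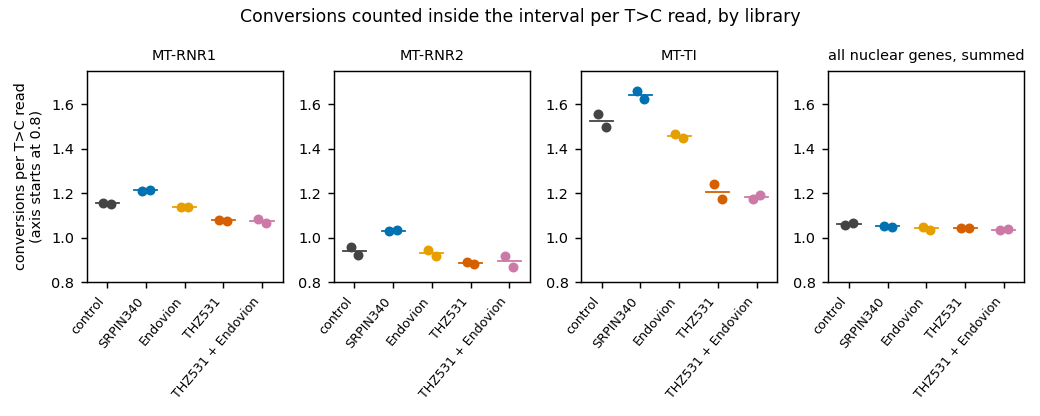
Conversions inside the interval per T>C read for MT-RNR1, MT-RNR2, MT-TI and all nuclear genes summed, by group (points, the 2 libraries; lines, their mean; the axis starts at 0.8). In the 3 chrM genes SRPIN340 lies above control and THZ531 below it, while the nuclear sum stays between 1.03 and 1.06.

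The nuclear genes that act on mitochondrial RNA or share its products were taken from 4 lists, counted at an edgeR adjusted p under 0.05 over all genes. Their calls were not checked with DESeq2, with left-out libraries or under any other setting. In total RNA edgeR called, over all genes and in either direction, 1.96% with SRPIN340, 30.7% with THZ531 and 29.0% with the combination, and with Endovion 8.90% of all genes rose. With SRPIN340 19.3% of all genes had an unadjusted p under 0.05. Of 16 genes of mitochondrial transcription and DNA maintenance, 3 rose and 3 fell in total RNA with THZ531 (6 of 16, beside 30.7% of all genes), 2 rose and 3 fell with the combination and 2 rose with Endovion, while with SRPIN340 0 were called and 3 had an unadjusted p under 0.05. TFAM, which packages mitochondrial DNA and starts its transcription, rose with THZ531 (log2 fold change 1.05 ± 0.19, edgeR adjusted p = 0.0019) and with both agents (0.84 ± 0.19, adjusted p = 0.0071). MTRES1, a factor that rescues mitochondrial transcription under stress, fell with THZ531 (-2.18 ± 0.25, edgeR adjusted p = 2.6e-05). TFB2M, the partner of POLRMT in opening the promoter, rose in nascent RNA with Endovion (3.72 ± 0.85, edgeR adjusted p = 0.0041) and with THZ531 (3.16 ± 0.87, adjusted p = 0.014), with wide errors. TWNK (-1.13 ± 0.32, edgeR adjusted p = 0.020) and MGME1 (-1.16 ± 0.35, 0.026) fell in nascent RNA with THZ531, where 3.60% of all genes fell. Of 14 tested in nascent RNA, 1 rose with Endovion (2.66% of all genes called) and 1 rose and 2 fell with THZ531 (the share of all genes that rose is not given here). With both agents 2 rose and 2 fell (8.12%), and with SRPIN340 0 were called (1.04%). The list's median in total RNA with THZ531 was 0.01, and that of all genes -0.01.

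Of 31 tested genes for processing and decay of mitochondrial RNA, 9 rose and 7 fell in total RNA with THZ531 (16 of 31, beside 30.7% of all genes), 6 rose and 10 fell with the combination (16 of 31, beside 29.0%), 2 rose with Endovion, and 1 rose and 1 fell with SRPIN340. The 2 of SRPIN340 were SUPV3L1, the helicase of the mitochondrial degradosome (2.34 ± 0.57, edgeR adjusted p = 0.046), and FASTKD5, which acts in the maturation of mitochondrial mRNAs (-0.45 ± 0.11, adjusted p = 0.0497). SUPV3L1 also rose with Endovion (2.86 ± 0.57, edgeR adjusted p = 0.0064). The pseudouridine synthase PUS1 (-1.32 ± 0.18, edgeR adjusted p = 9.8e-05) and the rRNA methyltransferase MRM3 (-1.35 ± 0.21, adjusted p = 0.00026) fell with THZ531. GTPBP3, which modifies the wobble base of mitochondrial tRNAs, fell in nascent RNA with SRPIN340 (-0.66 ± 0.18, edgeR adjusted p = 0.048), THZ531 (-0.89 ± 0.18, 0.00061) and both agents (-0.79 ± 0.18, 0.0025). The median of the list in total RNA was -0.10 with THZ531 and -0.04 with SRPIN340, against -0.01 and 0.03 over all genes.

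Of 71 tested nuclear subunits of the respiratory chain, 3 rose and 2 fell in total RNA with THZ531 (5 of 71, beside 30.7% of all genes), 3 rose and 1 fell with the combination (4 of 71, beside 29.0%) and 1 rose with Endovion, while with SRPIN340 0 were called and 14 had an unadjusted p under 0.05. COX6A1, a subunit of cytochrome c oxidase, rose with THZ531 (0.61 ± 0.14, edgeR adjusted p = 0.0057), and NDUFV3, of complex I, fell (-0.51 ± 0.13, adjusted p = 0.0080). In nascent RNA 1 of 70 was called with SRPIN340, where 1.04% of all genes were called. This was the complex I gene NDUFB3, which rose with each of the 4 treatments, by 2.38 ± 0.47 with SRPIN340 (edgeR adjusted p = 0.0042), 3.13 ± 0.47 with Endovion (3.6e-05), 2.76 ± 0.47 with THZ531 (0.00017) and 2.90 ± 0.47 with both agents (6.1e-05). All 4 comparisons share the control libraries, and the read counts of NDUFB3 are not given here. In total RNA NDUFB3 was called with neither SRPIN340 nor Endovion. In nascent RNA its interaction of THZ531 and Endovion was -2.99 ± 0.61 (edgeR adjusted p = 0.0196). Other genes of the list fell in nascent RNA. Of the 70, 1 rose and 2 fell with Endovion (2.66% of all genes called). With THZ531 2 rose and 3 fell (3.60% of all genes fell, and the share that rose is not given here). With both agents 2 rose and 3 fell (8.12% called). The median total change with SRPIN340 was -0.16 over these 71 genes, against -0.19 over the 16 chrM genes and 0.03 over all genes. Of 10 tested regulators of mitochondrial biogenesis, 3 rose in total RNA with THZ531 (beside 30.7% of all genes called), 4 with the combination (29.0%) and 2 with Endovion, while with SRPIN340 0 were called and 4 had an unadjusted p under 0.05. GABPA, a subunit of NRF-2, which activates genes of the respiratory chain, rose with Endovion (0.80 ± 0.19, edgeR adjusted p = 0.014), THZ531 (0.78 ± 0.19, 0.0059) and both agents (0.97 ± 0.19, 0.0015). NRIP1 had the smallest p of the list with THZ531 and with both agents. It rose by 0.996 ± 0.178 (edgeR adjusted p = 0.00081) and 0.926 ± 0.178 (0.0014). MYC rose with the same treatments, by 1.908 ± 0.402 (edgeR adjusted p = 0.0153) and 1.601 ± 0.40 (0.0288). In nascent RNA MYC rose with SRPIN340 (0.84 ± 0.23, edgeR adjusted p = 0.046), THZ531 (1.53 ± 0.22, 2.8e-06) and both agents (0.87 ± 0.23, 0.0088). With Endovion 0 of the 10 regulators were called in nascent RNA. The nascent interaction of THZ531 and Endovion for MYC was -1.416 ± 0.317 (edgeR adjusted p = 0.0254). Whether biogenesis itself changed was not tested.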

How the data were processed

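SLAM-seq libraries of 22RV1 cells were made from oligo(dT)-primed 3′ ends after iodoacetamide treatment, in 5 groups of 2 replicates. The authors mapped and filtered the reads with SLAM-DUNK on hg38 and deposited 1 table per library with counts per interval of reads, T>C reads, covered T positions and conversions. The submitters' processing notes also name Bowtie2 2.3.4.1, SAMtools 1.6 and DESeq2 1.38.2. Per the study's methods the libraries carried molecular identifiers, but whether reads were collapsed by them, the version of SLAM-DUNK and its strand setting are not given in the sources used here, so intervals on shares cover counting error only.

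Each table held 104653 intervals of 75026 transcripts, of which 96427 lay on main chromosomes and 92826 matched GENCODE release 44. Overlapping intervals of the same gene would count reads more than once. So 57531 intervals that did not overlap within a gene were kept and summed to 31015 genes, with the plain sum of all intervals as an alternative. Overlap between different genes was not removed. Whether a read across the border of adjoining chrM genes was counted in both was not tested. The 16 chrM intervals were all kept. No nuclear copy of a chrM gene was among the mapped genes (0). Intervals with multimapping reads numbered 0, but whether such reads were discarded before counting is not given. Whether reads counted on chrM also matched other places in the genome was not tested.

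Counts were tested in R 4.3.3 with edgeR 4.0.16 (filterByExpr, TMM factors, robust quasi-likelihood fit over all 10 libraries, 5 residual degrees of freedom), with Benjamini-Hochberg adjustment over all tested genes and a threshold of 0.05. Labelled share was tested as the interaction of group and read class with library as a block. The same form of test set conversions against unconverted T positions for the conversion rate. For conversions per T>C read it set conversions against all T>C reads. Conversions and T>C reads come from the same reads and are not separate classes, a dependence that the test did not model. Intervals on shares are exact at the 95% level, computed with scipy 1.17.1 in Python 3.11.15. DESeq2 1.42.0 was an alternative. The others were total-read and nuclear-gene scaling, no low-count filter, a fit of 2 groups alone, TMM within each read class, the replicate block, the threshold of the study's methods and each library left out in turn. On simulated data (SRPIN340 against control), the nascent test on 9190 genes recovered 56.12% of changes of 1 and 98.04% of changes of 2 on the log2 scale, the total test on 14220 genes 84.31% and 97.96%, and the share test on 9946 genes 45.28% and 97.87%. The simulated spread was fixed in advance, alike for all genes, and not estimated from these libraries. Changes were planted only in genes above a minimum count. These rates therefore do not give the power of the tests on these data.

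Over 10 pairs of groups, the differences of replicate 1 and 2 correlated at -0.0713 to 0.0620 (nascent) and -0.151 to 0.198 (total), so the numbers were not taken to pair samples. The members and lists were chosen with earlier results of these data known. The rule for named genes gave every chrM member by value, count or range, those called in a test in every library, and at most 3 genes of a list by smallest p. It foresaw mRNAs, of which none had an interval. Other columns of per-sample values that were left out numbered 0.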

Additional observations from a re-analysis of the deposited data

Results flagged for a closer look

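For MT-TW the group means differed with opposite signs when Endovion alone was set against control and when the combination was set against THZ531 alone. Its normalized CPM in total RNA was on average 279.0 higher in the Endovion libraries than in the control libraries, and the combination minus THZ531 alone was -380.0, without overlap between libraries in either case. The Endovion change did not pass (log2 fold change 0.24 ± 0.13, edgeR adjusted p = 0.239), and the combination was not tested against THZ531 alone. For its conversion rate these differences were -0.423 and 0.333 percentage points, on 12 to 30 conversions a library, with exact 95% intervals that overlap between the groups. The Endovion change in the rate did not pass either (-0.62 ± 0.82, edgeR adjusted p = 0.811). Neither difference between the effects was tested.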

How the results depend on the processing

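Over 17 counts of called members, 194 of 267 values under other settings were within 1.5 times the reported count. With the threshold of the study's methods the counts went from 2 to 1 (nascent SRPIN340), 2 to 0 (nascent combination), 4 to 1 (total SRPIN340), 2 to 0 (total THZ531), and 1 to 0 (total Endovion and total combination). With the plain sum of overlapping intervals they were 0 (nascent SRPIN340, THZ531 and combination, total SRPIN340, share in Endovion and combination) and 1 (total THZ531). With 2 groups alone in the fit they were 1 (nascent and total SRPIN340), 0 (nascent combination) and 2 (share, combination), and total-read scaling gave 1 in nascent RNA of the combination. For the share, no low-count filter gave 1 (SRPIN340), 1 (THZ531) and 2 (combination), and TMM within each class gave 0 for Endovion and for the combination. Conversions per covered T also gave 0 for both, and under this setting alone the change of MT-TW with the combination turned to 0.0768. The replicate block gave 1 (share, THZ531), 2 (share, combination) and 0 (conversions per T>C read, combination), and TMM within each class also gave 0 there. With the block total SRPIN340 lost MT-TF (3 called), total THZ531 gained MT-TI (3 called), and the other counts were within 1.5 times. With single libraries left out the ranges were 1 to 2 (nascent SRPIN340 and combination), 0 to 1 (nascent THZ531), 0 to 5 (total SRPIN340), 0 to 1 (total Endovion), 0 to 3 (total THZ531), 0 to 1 (share in SRPIN340, Endovion and THZ531), 0 to 2 (share, combination) and 0 to 1 (conversions per T>C read in SRPIN340, THZ531 and combination). Of 257 values of single called genes, 187 kept direction and call, 69 lost the call and 1 reversed. Causes were not tested. Depth limits MT-TR most, with as few as 3 T>C reads in a library.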
